A study of Homo sapiens with 2 samples.

Results

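The miR-17-92 and miR-106b-25 clusters were examined in small extracellular vesicles (sEVs) through 10 mature miRNAs, 6 from miR-17-92 and 4 from miR-106b-25, out of 1315 mature miRNAs listed. The members were taken by name: hsa-miR-17-5p, hsa-miR-18a-5p, hsa-miR-19a-3p, hsa-miR-19b-3p, hsa-miR-20a-5p and hsa-miR-92a-3p from the former, and hsa-miR-106b-5p, hsa-miR-106b-3p, hsa-miR-93-5p and hsa-miR-25-3p from the latter. The prefix, which marks the human miRNA, is left out from here on. The list, including the choice of miR-106b as the hairpin shown with both arms, was selected from earlier results with the counts of both libraries known, so the differences given here are descriptions and carry no test. Small RNA was sequenced from sEVs of wild-type MCF-10A cells (1 library), a non-cancer human mammary epithelial line, and of wild-type MDA-MB-231 cells (1 library), a human triple-negative breast cancer line. Neither line carried an engineered allele or received an agent, and sEVs were collected in EV-free medium and pelleted by ultracentrifugation. With 1 library per cell line no difference has a replicate check, no p-value is given, and each interval covers counting error only and compares these 2 libraries rather than the cell lines.

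miRNAs are cut from hairpin precursors, which leaves a duplex of a 5p and a 3p strand, and usually one strand, the guide, is loaded into an Argonaute protein while the other is degraded. Nucleotides 2 to 8 of the guide, the seed, pair with target mRNAs, so that miRNAs with the same seed share many targets. The miR-17-92 cluster is a MYC-induced polycistron with well-known oncogenic activity, and its members repress BIM, CDKN1A and E2F1 among others. miR-106b-25 is its paralogue, lies in the gene of the replication helicase subunit MCM7, and represses CDKN1A and BIM as well.

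On GRCh38 (GENCODE v29) the 6 hairpins of miR-17-92 lie on chromosome 13 (plus strand, 91350605 to 91351391), a span of 787 bp within the host transcript gene MIR17HG (91347820 to 91354579). They are intronic in 1 and exonic in 2 of its 3 annotated transcripts. The 3 hairpins of miR-106b-25 lie on chromosome 7 (minus strand, 100093560 to 100094074), a span of 515 bp, and are intronic in all 8 MCM7 transcripts that span them. miR-19b-3p and miR-92a-3p are each also encoded at a second locus on chromosome X, in the miR-106a-363 cluster, and their counts cannot be assigned to either locus.

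The mature sequences (RefSeq, GRCh38.p14, matched for 10 of 10 members) are shown because the seed, in capitals, sets the groups compared here. The first group, with seed AAAGUGC, holds members of both clusters:
miR-17-5p: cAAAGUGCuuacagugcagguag
miR-20a-5p: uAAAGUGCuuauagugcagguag
miR-106b-5p: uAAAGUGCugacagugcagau
miR-93-5p: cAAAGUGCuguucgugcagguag
The second group, with seed AUUGCAC, also spans both clusters:
miR-92a-3p: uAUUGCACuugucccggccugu
miR-25-3p: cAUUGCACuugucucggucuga
The miR-19 group has seed GUGCAAA and comes from miR-17-92 alone:
miR-19a-3p: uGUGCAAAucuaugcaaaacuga
miR-19b-3p: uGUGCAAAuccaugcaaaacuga
The remaining members have seeds of their own, AAGGUGC in miR-18a-5p and CGCACUG in miR-106b-3p:
miR-18a-5p: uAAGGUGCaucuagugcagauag
miR-106b-3p: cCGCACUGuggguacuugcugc

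Several of these sequences are close enough that the treatment of mismatches decides which miRNA a read is counted for, and the mismatch and multi-mapping settings are not given in the sources used here. Counted from the 5′ end, miR-19a-3p and miR-19b-3p differ by 1 substitution (U11C), and miR-17-5p and miR-20a-5p by 2 (C1U and C12U). miR-106b-5p differs from miR-17-5p by 3 substitutions over 21 nucleotides (C1U, U10G and G20A) and from miR-20a-5p by 3 (U10G, U12C and G20A).

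The libraries held 11529 counts in MCF-10A sEVs against 18397 in MDA-MB-231 sEVs, so that 1 count was 86.7 and 54.4 CPM (counts scaled to a common library total), and a count of 0 allows a share of up to 0.0260% and 0.0163%. The most abundant miRNA, miR-182-5p, had 46.6% and 51.0% of the counts. Over 109 miRNAs that reached 10 counts in at least 1 library, the median log2 ratio of CPM, MDA-MB-231 over MCF-10A, was −0.72, and scalings less tied to the few most abundant miRNAs raised every log2 ratio by 0.67 to 0.73. Both labels give epithelial cells. The 7 epithelial miRNAs summed to 0.685% in MCF-10A sEVs, where 2 of 7 reached 10 counts, and to 0.114% in MDA-MB-231 sEVs, where 0 of 7 did. The ratio of these sums was 0.167 (0.0978 to 0.272). Of the 7, miR-205-5p went from 41 counts to 0, miR-200c-3p from 19 to 3, miR-200a-3p from 8 to 1 and miR-203a-3p from 7 to 4. In the other direction, miR-200b-3p had 3 and 9, miR-141-3p 0 and 2, and miR-429 1 and 2. Each marker was thus below 10 counts in MDA-MB-231 sEVs.

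Together the 10 members made up 1.40% of the counts in MCF-10A sEVs (161 counts, 95% Wilson interval 1.20 to 1.63%) against 1.16% in MDA-MB-231 sEVs (214 counts, 1.02 to 1.33%). The pooled share was 0.833 times as high in MDA-MB-231 sEVs, with an exact 95% interval of 0.676 to 1.03 that includes an equal share, and under the 3 other scalings it was 1.33 to 1.38, with intervals that lie above 1 (lowest bound 1.08, highest 1.71). The data thus give no direction for the family as a whole that holds under every scaling. Within the family, the arms of 1 hairpin differed in opposite directions under every scaling: miR-106b-5p went from 1 count to 16, and miR-106b-3p from 16 counts to 5.

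**Figure D1:**
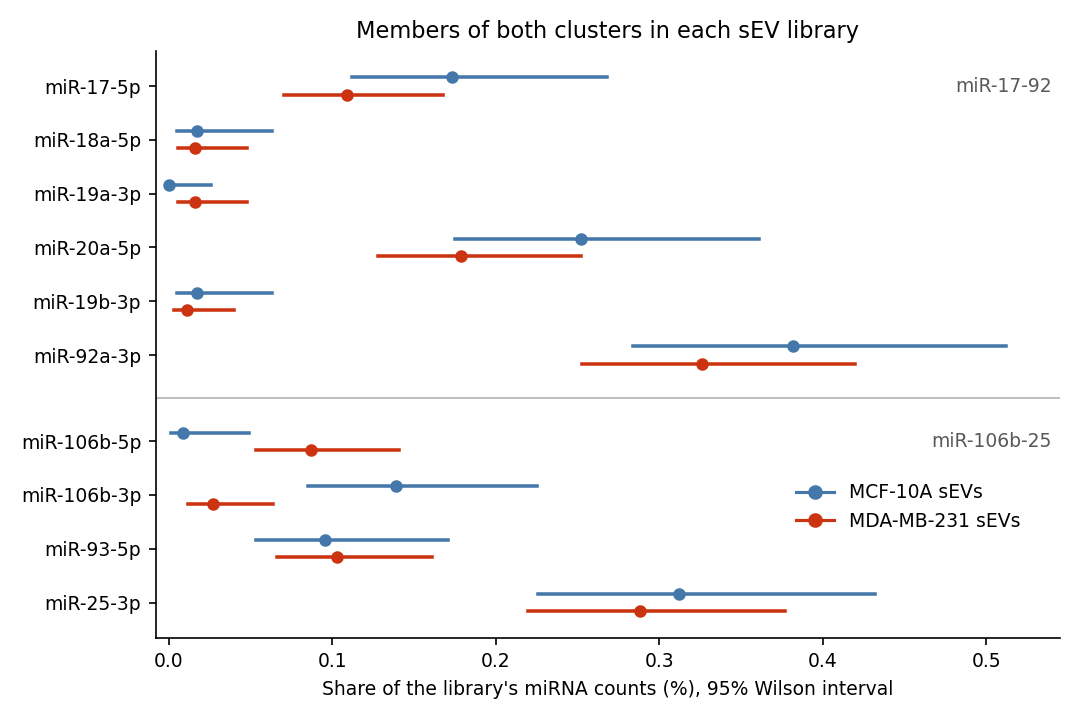
Share of the library's miRNA counts (%, horizontal axis) for each member, in genomic order within its cluster, in MCF-10A sEVs (blue) and MDA-MB-231 sEVs (red), 1 library each, with 95% Wilson intervals (for 0 counts, the limit that 3 counts give). The intervals of the 2 libraries overlap for every member except miR-106b-5p (0.00867% and 0.0870%) and miR-106b-3p (0.139% and 0.0272%).

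In the miR-17-92 cluster, miR-92a-3p, which represses BIM and integrin subunits, was the most abundant member, with 44 counts (0.382%) in MCF-10A sEVs against 60 (0.326%) in MDA-MB-231 sEVs. Its ratio of shares was 0.855 (0.570 to 1.29). miR-20a-5p, a repressor of E2F1 and CDKN1A, had 29 counts (0.252%) and 33 (0.179%), a ratio of 0.713 (0.420 to 1.22). The intervals of both include an equal share.

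miR-17-5p, which shares the miR-20a seed, had 20 counts in each library, which is 0.173% of MCF-10A sEVs against 0.109% of MDA-MB-231 sEVs (ratio 0.627, 0.320 to 1.23). An equal share would have given 31.9 counts in MDA-MB-231 sEVs. Under the other scalings its ratio was 1.00 to 1.04, so even the direction was not settled.

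The other 3 members of the polycistron were near the limit of detection. miR-18a-5p had 2 and 3 counts, and miR-19b-3p had 2 counts in each library. miR-19a-3p, which with miR-19b-3p is the main oncogenic activity of the cluster in lymphoma models, had 0 and 3 counts. No fold is given for them, because both counts are at or under 3. Summed, they held 4 of the 97 cluster counts in MCF-10A sEVs and 8 of the 121 in MDA-MB-231 sEVs, although their hairpins lie between those of miR-17 and miR-92a on the same primary transcript.

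As a cluster, miR-17-92 took 0.841% of MCF-10A sEVs (0.690 to 1.03%) against 0.658% of MDA-MB-231 sEVs (0.551 to 0.785%). The ratio of 0.782 has an interval of 0.594 to 1.03, and the other scalings gave 1.25 to 1.30, with intervals that still include 1 (lowest bound 0.947, highest 1.71). Within the cluster the make-up was alike: miR-92a-3p held 45.4% of its counts in MCF-10A sEVs (35.8 to 55.3%) against 49.6% in MDA-MB-231 sEVs (40.8 to 58.4%). miR-20a-5p held 29.9% and 27.3%, and miR-17-5p 20.6% and 16.5%, with overlapping intervals in each case.

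In the miR-106b-25 cluster, miR-25-3p, which carries the miR-92 seed and represses BIM, led with 36 counts (0.312%) in MCF-10A sEVs against 53 (0.288%) in MDA-MB-231 sEVs. Its ratio was 0.923 (0.593 to 1.45). miR-93-5p, a miR-17 seed member, had 11 counts (0.0954%) and 19 (0.103%), a ratio of 1.08 (0.490 to 2.52). Pooled, these guides of the MIR93 and MIR25 hairpins took 0.408% and 0.391% of the libraries (ratio 0.960, 0.656 to 1.42), an interval that includes an equal share when shares of the library total are used.

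The whole cluster of 4 members took 0.555% of MCF-10A sEVs (64 counts, 0.435 to 0.708%) against 0.506% of MDA-MB-231 sEVs (93 counts, 0.413 to 0.619%). Its ratio was 0.911 (0.655 to 1.27), against 1.45 to 1.51 under the other scalings, where the intervals lie above 1 (lowest bound 1.05, highest 2.11). Relative to miR-17-92 the counts of miR-106b-25 were 0.660 to 1 in MCF-10A sEVs and 0.769 to 1 in MDA-MB-231 sEVs. The ratio between these values, which no scaling can change, was 1.16 (exact interval 0.753 to 1.80). Alternative sets of members gave 1.20 to 1.47, the highest without miR-106b-3p (0.924 to 2.35), each with an interval that includes 1. A difference in the balance of the paralogous clusters was thus not detectable at this depth.

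**Figure D2:**
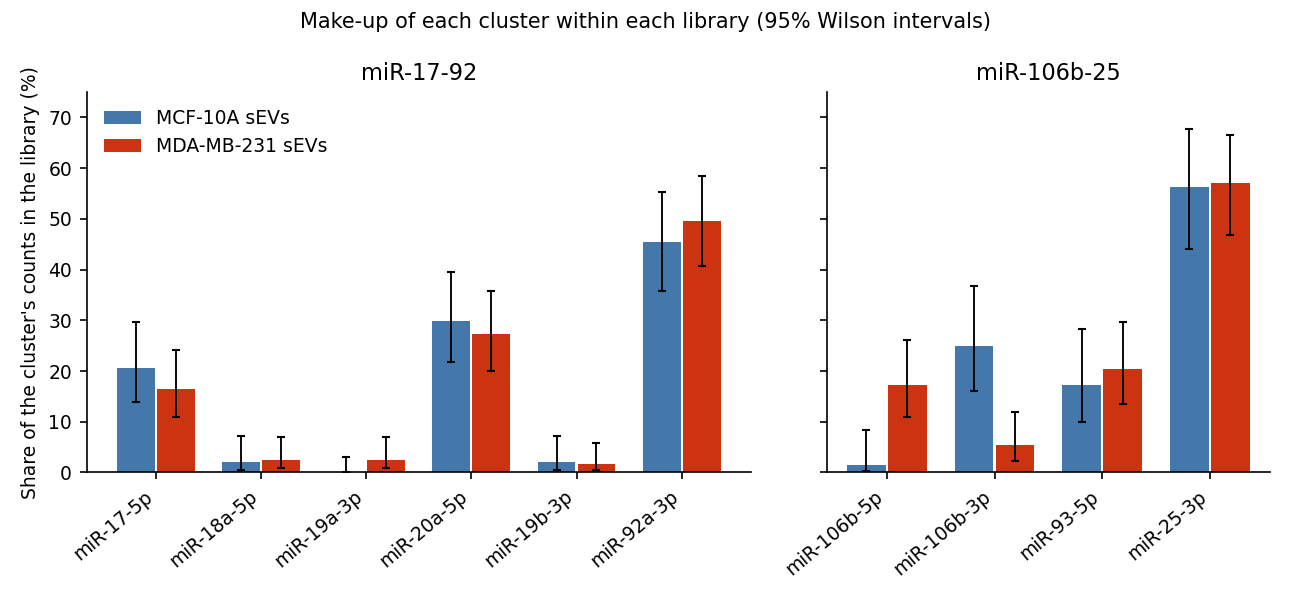
Share of each cluster's own counts (%, vertical axis) held by each member in MCF-10A sEVs (blue) and MDA-MB-231 sEVs (red), bars with 95% Wilson intervals (for 0 counts, the limit that 3 counts give). miR-92a-3p and miR-25-3p lead their clusters in both libraries, whereas the arms of miR-106b exchange places (miR-106b-3p 25% and 5.38%, miR-106b-5p 1.56% and 17.2%).

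The hairpin of miR-106b (82 nucleotides, chromosome 7, 100093993 to 100094074, minus strand, RefSeq GRCh38.p14) is shown with its 5p arm, nucleotides 12 to 32, and its 3p arm, nucleotides 52 to 73, in capitals:
MIR106B: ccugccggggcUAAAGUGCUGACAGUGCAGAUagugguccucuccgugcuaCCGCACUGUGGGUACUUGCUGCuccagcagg

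The 5p arm carries the miR-17 seed and is the arm that shares targets such as CDKN1A with the other members of that seed group. It had 1 count in MCF-10A sEVs (0.00867%, 0.00153 to 0.0491%) against 16 in MDA-MB-231 sEVs (0.0870%, 0.0535 to 0.141%), a ratio of 10.0 with an interval of 1.56 to 420.5. At the MDA-MB-231 share, 10.0 counts would have been seen in MCF-10A sEVs.

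The 3p arm, whose seed no other member has, differed in the opposite direction. It had 16 counts in MCF-10A sEVs (0.139%, 0.0854 to 0.225%) against 5 in MDA-MB-231 sEVs (0.0272%, 0.0116 to 0.0636%), a ratio of 0.196 (0.0561 to 0.559). At the MCF-10A share, 25.5 counts would have been seen in MDA-MB-231 sEVs. Under the other scalings the ratios were 16.0 to 16.7 for the 5p arm and 0.313 to 0.325 for the 3p arm, each on the same side of 1 with its interval.

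As a share of the hairpin's counts, the 5p arm was 5.88% in MCF-10A sEVs (1 of 17, 1.05 to 27.0%) against 76.2% in MDA-MB-231 sEVs (16 of 21, 54.9 to 89.4%). The 5p to 3p ratio was 51.2 times as high in MDA-MB-231 sEVs, with a wide exact interval of 4.86 to 2275, since 1 of the 4 counts is 1. Both arms together took 0.147% and 0.114% of the libraries, a ratio of 0.774 (0.389 to 1.56). For the hairpin as a whole the interval includes an equal share, but it is wide and does not exclude a difference in the total. The difference beyond counting error was that between the arms.

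Set against the neighbours on the same primary transcript, miR-106b-5p amounted to 0.0213 counts per count of miR-93-5p plus miR-25-3p in MCF-10A sEVs against 0.222 in MDA-MB-231 sEVs, a 10.4-fold difference (1.51 to 447). miR-106b-3p amounted to 0.340 and 0.0694, a ratio of 0.204 (0.0553 to 0.640). Per count of the other 3 miR-17 seed members, the miR-106b-5p value in MDA-MB-231 sEVs was 13.3 times the MCF-10A value (1.94 to 568). Relative to its cluster neighbours the 5p arm was thus higher and the 3p arm lower in MDA-MB-231 sEVs, whatever the scaling. Whether reads of similar miRNAs were counted as miR-106b-5p was not tested.

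Arms were compared in the same way for all 219 hairpins with both arms listed, of which 38 had at least 10 counts in each library. The dominant arm differed between the libraries in 2 of the 38 (5.26%), miR-106b and miR-222, the latter named after its values were seen. In miR-222, a hairpin with nearly equal arms, the 5p arm held 52.9% (9 of 17) and 41.7% (5 of 12). Hairpins with 0 counts of 1 arm in both libraries, such as miR-17 and miR-93, have a change of 0 points. Their interval has no limits and cannot lie apart from 1. Only 7 of the 38 had a minor arm with at least 10% of the hairpin's counts in a library, miR-106b among them. The interval of the ratio of 5p to 3p ratios lay apart from 1 in 1 of the 38 (2.63%), miR-106b. Its 5p share differed by 70.3 percentage points, against a median of 1.16 and a highest value of 14.6 points (miR-30e, also named after its value was seen) over the other 37. As miR-106b was chosen with these counts known, this places it among the hairpins and is not evidence beyond the counts themselves.

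**Figure D3:**
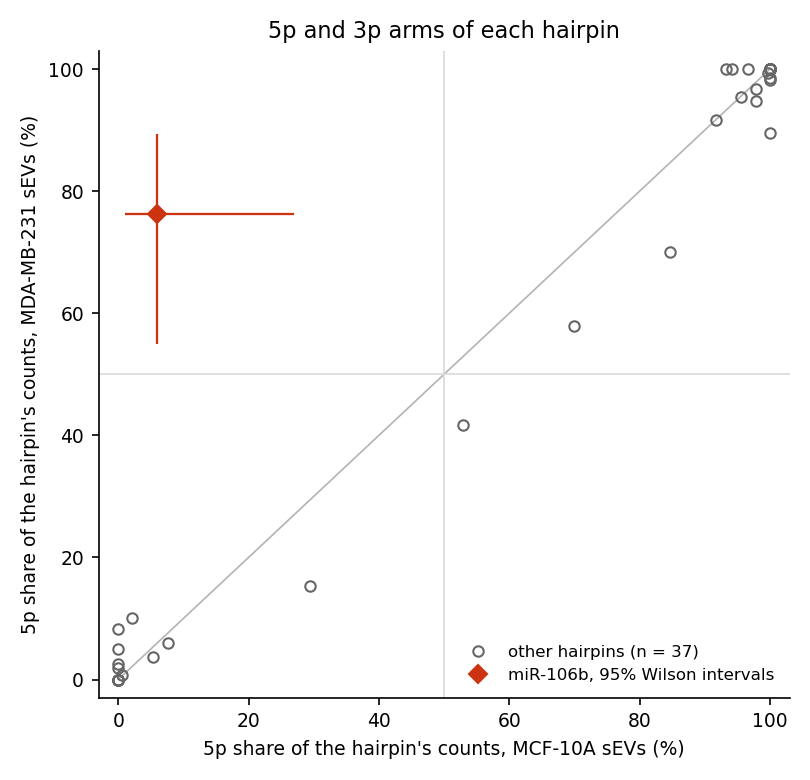
Share of a hairpin's counts in its 5p arm (%) in MCF-10A sEVs (horizontal axis) and MDA-MB-231 sEVs (vertical axis) for the 38 hairpins with at least 10 counts in each library, with equal shares on the diagonal. miR-106b (red, 95% Wilson intervals) lies at 5.88% and 76.2%, and the other 37 (grey circles) lie within 14.6 points of the diagonal.

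The other arms of the family were almost absent. Of 10 such arms looked for, 6 were listed, miR-17-3p, miR-18a-3p and miR-93-3p with 0 counts in both libraries. miR-19a-5p and miR-19b-1-5p had 1 count in MCF-10A sEVs against 0 in MDA-MB-231 sEVs, and miR-25-5p had 0 and 1. miR-106b was thus the only hairpin of either cluster, among those with both arms listed, in which both arms exceeded 3 counts in a library.

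Pooled by seed, the miR-17 group of 4 took 0.529% of MCF-10A sEVs (61 counts) against 0.478% of MDA-MB-231 sEVs (88 counts), a ratio of 0.904 (0.645 to 1.27). Its members from miR-17-92 went from 49 counts to 53 (ratio 0.678, 0.451 to 1.02), and those from miR-106b-25 from 12 to 35 (1.83, 0.926 to 3.87). Of the latter, miR-106b-5p contributed 1 and 16 counts. The miR-92 group of 2 took 0.694% (80 counts) and 0.614% (113 counts), a ratio of 0.885 (0.659 to 1.19), and the miR-19 group 2 and 5 counts, a ratio of 1.57 (0.256 to 16.5). No seed group with members of more than 1 hairpin had an interval that lay apart from an equal share, although under other scalings the miR-17 and miR-92 groups had ratios of 1.44 to 1.5 and 1.41 to 1.47 with intervals above 1 (lowest bounds 1.03 and 1.05).

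Within the family the miR-92 seed led, with 49.7% of the pooled counts in MCF-10A sEVs (42.1 to 57.3%) against 52.8% in MDA-MB-231 sEVs (46.1 to 59.4%), followed by the miR-17 seed with 37.9% and 41.1%. The ratio of the miR-17 to the miR-92 group was 0.762 and 0.779, and the ratio between these, free of scaling, was 1.02 (0.647 to 1.62). The seed CGCACUG of miR-106b-3p held 9.94% of the family in MCF-10A sEVs (6.21 to 15.5%) against 2.34% in MDA-MB-231 sEVs (1.00 to 5.35%).

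**Figure D4:**
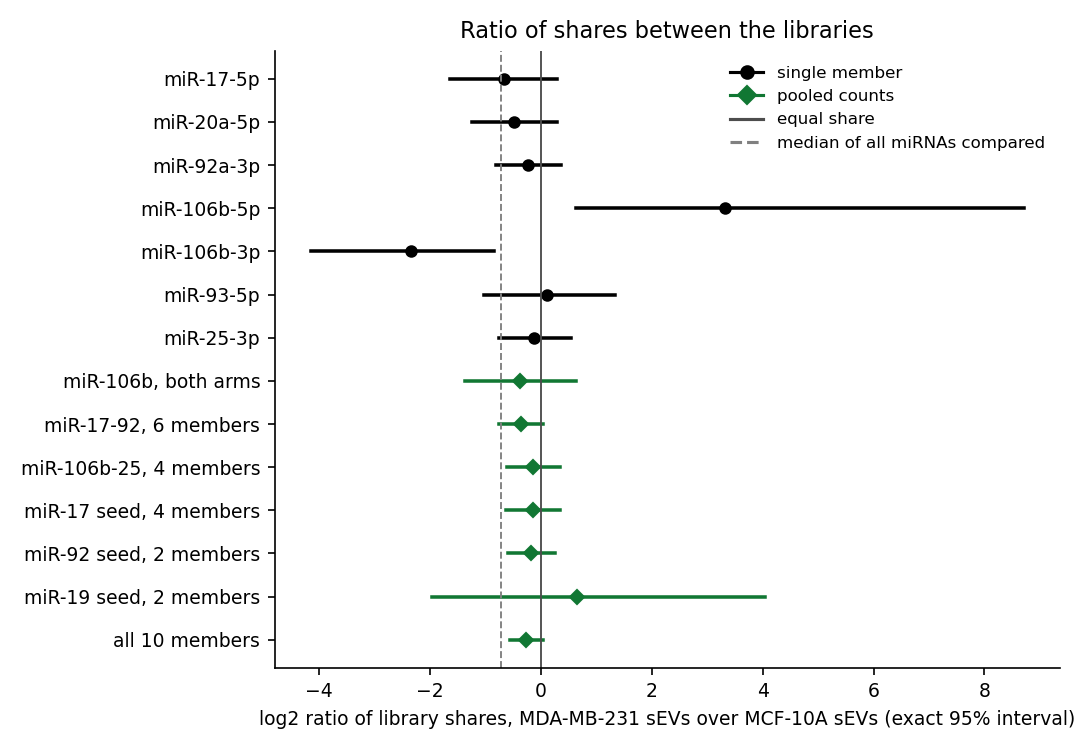
Log2 ratio of library shares, MDA-MB-231 sEVs over MCF-10A sEVs, with exact 95% intervals, for the 7 members with more than 3 counts in a library (black circles) and for pooled counts (green diamonds). The solid line marks an equal share and the dashed line the median of all 109 miRNAs compared (−0.72); only the arms of miR-106b have intervals apart from 0, while under other scalings every ratio moves right by 0.67 to 0.73 and some pools then lie apart from it.

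The order of the members by level was similar in both libraries (Spearman's rho 0.86 over the 10 members, which share library and depth). Since the sequences are all 21 to 23 nucleotides long, levels were compared without a length correction. Whether adapter ligation and PCR recovered the different sequences equally was not tested, so the order is that of the counts in these libraries. In MCF-10A sEVs the order ran from miR-92a-3p through miR-25-3p, miR-20a-5p, miR-17-5p and miR-106b-3p to miR-93-5p, and each step in that run had an interval that includes 1. The step from miR-93-5p (11 counts) to miR-18a-5p (2 counts) was 5.50-fold, with an interval above 1 (1.20 to 51.1). In MDA-MB-231 sEVs the steps with an interval above 1 were those from miR-25-3p to miR-20a-5p (53 and 33 counts, 1.61-fold, 1.02 to 2.56) and from miR-106b-5p to miR-106b-3p (16 and 5 counts, 3.20-fold, 1.12 to 11.2). The members were sorted by these same counts and the intervals are not adjusted for the number of steps. The steps are therefore descriptions, and no difference beyond counting error is drawn from them. The GC content of the mature sequences ran from 34.8% in miR-19a-3p to 63.6% in miR-106b-3p, and its Spearman's rho with the share over the 10 members was 0.58 in MCF-10A sEVs against 0.46 in MDA-MB-231 sEVs.

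Of the 10 members, 7 had at least 10 counts in 1 library. Among these, 1 (miR-106b-5p) was higher in MDA-MB-231 sEVs by 2-fold or more on the CPM + 1 scale, against 15.6% of the 109 miRNAs compared, and 1 (miR-106b-3p) was at least 2-fold lower, against 41.3%. Under each of the 3 other scalings these shares of all miRNAs were 22.0% and 25.7%. The same arms were those whose interval of the ratio of shares lay above 1 (16.5% of the 109) and below 1 (46.8% of the 109). Each arm of miR-106b reached 10 counts only in the library where it was high. The other 5, miR-17-5p, miR-20a-5p, miR-92a-3p, miR-93-5p and miR-25-3p, had at least 10 counts in both libraries, and 0 of the 5 were 2-fold higher or lower, where 3.17% and 33.3% of the 63 such miRNAs were. Their log2 ratios ran from −0.67 to 0.11 with a median of −0.23, beside a median of −0.67 over the 63. Their ratios thus lay at or above the middle of the miRNAs compared, and nothing particular to the family is drawn from this.

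**Figure D5:**
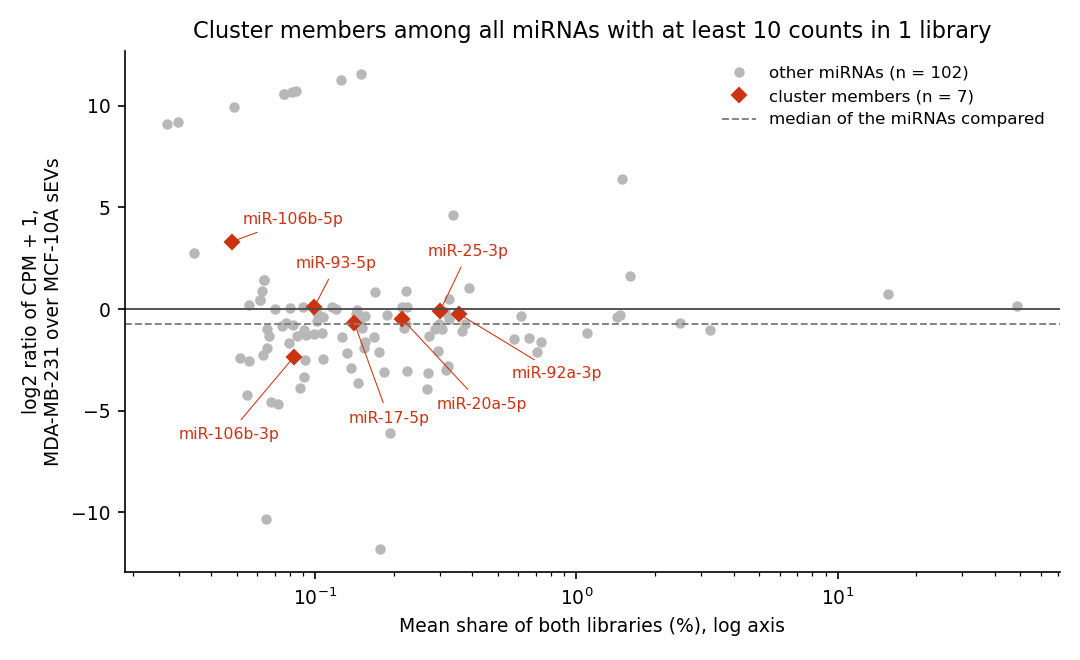
Log2 ratio of CPM + 1, MDA-MB-231 over MCF-10A sEVs (vertical axis), against the mean share of both libraries (%, horizontal log axis) for 109 miRNAs that reached 10 counts in either library, with 7 cluster members in red. The arms of miR-106b lie at 3.31 and −2.35, and the other 5 members lie between −0.67 and 0.11; other scalings raise all points by 0.67 to 0.73. Grey points near the upper and lower edges have 0 counts in 1 library, and their height depends on the pseudocount.

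Among miRNAs outside the family with at least 10 counts in both libraries, those with the ratio nearest to the pooled members were miR-10b-5p (18 and 24 counts, ratio 0.836), let-7g-5p (186 and 245 counts, 0.825) and miR-185-5p (13 and 17 counts, 0.820). The likeness is the difference of the log2 ratios, 0.024 or less in size, and rests on 2 libraries.

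The third paralogue, the miR-106a-363 cluster on chromosome X, was represented by miR-363-3p, a miR-92 seed member, with 9 counts in MCF-10A sEVs against 15 in MDA-MB-231 sEVs (ratio 1.04, 0.428 to 2.71). miR-20b-5p had 2 and 3 counts, miR-18b-5p 0 in both, and miR-106a-5p, which differs from miR-17-5p by a single substitution (C1A), 0 and 1. Of the 8 arms of this cluster looked for, 4 were listed, with 11 and 19 counts in all. Of the 5 seed relatives encoded elsewhere, 3 were listed: miR-92b-3p had 0 and 1 counts, miR-526b-3p 1 and 0, and miR-32-5p 0 in both. Outside the 10 members, miR-363-3p was thus the only listed relative with more than 3 counts in a library.

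Members of these clusters, miR-92a-3p and miR-25-3p among them, are also abundant in blood cells, and serum is a component of culture media. The 9 miRNAs typical of blood cells and serum summed to 12.2% of MCF-10A sEVs against 20.2% of MDA-MB-231 sEVs, a ratio of 1.65 (1.55 to 1.75). Most of this was miR-451a, an erythroid miRNA (11.8% and 19.4%), and without it the other 8 summed to 0.451% and 0.756% (ratio 1.68, 1.21 to 2.35). Of this, miR-486-5p, also erythroid, had 29 and 96 counts (ratio 2.07, 1.36 to 3.26), and the remaining 7 summed to 23 and 43 counts (ratio 1.17, 0.691 to 2.04, a sum formed after the values were seen), with miR-126-3p at 0.985 (0.482 to 2.08). Apart from miR-451a and miR-486-5p, the list thus had an interval that includes an equal share only when shares of the library total are used. The other scalings raise every log2 ratio by 0.67 to 0.73, which is enough to bring this interval above 1. Whether the remaining 7 differed between the libraries is therefore not settled. Of the 9, 5 were detected in MCF-10A sEVs against 7 in MDA-MB-231 sEVs, and miR-150-5p and miR-144-5p were at 0 in both. The part of these miRNAs in the shares of the clusters was not tested.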

How the data were processed

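For each mature miRNA the authors deposited raw counts, in whole numbers, and CPM, in which each count is divided by the library total, for 1 MCF-10A and 1 MDA-MB-231 sEV library. The submitters' processing notes name FastQC, cutadapt, Bowtie, edgeR and hg38; versions, miRBase release and mismatch settings are not given in the sources used here. According to the labels, modifications of the RNA were removed before adapter ligation, and fragments were amplified by PCR without molecular identifiers being described. The growth medium is given for MDA-MB-231 cells only. The paper's text refers to an earlier data set for sEV miRNA sequencing and does not state whether these are the same libraries.

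Counts were used throughout, and the deposited CPM values were checked against them. Shares carry 95% Wilson intervals, ratios of shares exact conditional binomial intervals, and ratios within a library exact conditional intervals of the odds ratio. For miRNAs that reached 10 counts in either library, a pseudocount of 1 was added to CPM, and a ratio of 2-fold was counted as higher or lower. A count of 0 allows up to 3 counts. Python 3.11.15, numpy 2.4.6, scipy 1.17.1, pandas 2.3.3 and, for TMM factors, edgeR 4.0.16 in R 4.3.3 were used. The calls and the intervals of ratios of shares were tested on counts simulated with counting error only and with known totals. Such a simulation cannot test the scaling or variation between libraries. The members, lists and alternatives were chosen with earlier results of these data known. Named miRNAs are the members, their other arms, the miR-106a-363 cluster, 5 seed relatives, the 3 miRNAs nearest in ratio, the most abundant miRNA and both marker lists, and 4 hairpins (miR-222, miR-30e, miR-221 and miR-423) were named after their arm counts were seen. Of these 33 family sequences, 32 matched RefSeq, and miR-106a-3p did not.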

Additional observations from a re-analysis of the deposited data

How the results depend on the processing

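No paired analysis was possible because each cell line had a single library, and for the same reason no replicate could be left out. An alternative ratio was taken as unmoved if it lay within the counting interval of the value reported. A number of members or hairpins was unmoved if it was equal or within 1.5-fold. A median was unmoved if it kept its sign and differed by less than the standard deviation of the members' log2 ratios. Of 86 alternative values, 55 were unmoved by these rules and 31 moved. The scaling moved most of them. With TMM factors, with size factors by the median of ratios and with totals that left out the 10 most abundant miRNAs, the ratio was 1.38, 1.33 and 1.38 for all 10 members, 1.29, 1.25 and 1.30 for miR-17-92, and 1.51, 1.45 and 1.51 for miR-106b-25. In the same order it was 1.49, 1.44 and 1.5 for the miR-17 seed and 1.46, 1.41 and 1.47 for the miR-92 seed, and the median log2 ratio of the 7 members was 0.50, 0.45 and 0.51 in place of −0.23 (0.01, −0.05 and 0.01 in place of −0.72 over the 109 miRNAs). These 3 scalings left 1 member higher and 1 lower, with 28 of all miRNAs lower and 24 higher in place of 45 and 17. The latter numbers were 288 and 242 of 684 with no count minimum, 12 and 5 of 30 with a minimum of 50 counts, 59 and 21 at 1.5-fold, and 26 and 13 at 4-fold. The number of members at least 2-fold higher was 2 with no count minimum, which adds miR-19a-3p, and the number lower was 2 at 1.5-fold, which adds miR-17-5p. Both numbers were 0 with a minimum of 50 counts and, in an alternative chosen after seeing the data, with 10 counts in both libraries, since the arms of miR-106b then drop out. The number of hairpins with another dominant arm, 2, was 3 of 53 with at least 5 counts in each library and 0 of 18 with at least 20, where miR-106b drops out (both chosen after seeing the data). With 0.5 added to each count the ratio of miR-106b arm ratios was 33.0 in place of 51.2. Depth limits these results, as the arms of miR-106b rest on 38 counts in all and miR-18a, miR-19a and miR-19b on 12.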

Other observations

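Beside miR-106b, the hairpins of the 38 compared whose 5p share differed most between the libraries were miR-30e, miR-221 and miR-423, named after their values were seen, and each had an interval of the arm ratio that includes 1. In miR-30e, the 5p arm held 84.6% of the counts in MCF-10A sEVs (11 of 13) against 70.0% in MDA-MB-231 sEVs (7 of 10). In miR-221, a regulator of the cell cycle inhibitor CDKN1B, it held 29.4% (5 of 17) against 15.4% (2 of 13). In miR-423 it held 70.0% (14 of 20) against 57.9% (11 of 19). Minor arms with at least 10% of the hairpin's counts in a library were found in 7 of the 38 hairpins.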
